A study of Mus musculus with 24 samples.

Results

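The comparison described here is between day 4 GFP-positive cells and day 3 cells of mouse optic vesicle (OV) organoids, the step in which Rax-GFP cells enter the eye field. Its members are 6 of the 24 RNA libraries of the series, chosen by their labels: 3 of day 3 and 3 of day 4 GFP-positive cells, with every gene in the table and both directions of change considered. All groups used here came from the same line, Rx-GFP K/I EB5, a mouse embryonic stem cell (mESC) line with a GFP reporter knocked in at Rax, so the controls carry the reporter too. Organoids were started on day 0 from 4500 cells each, in GMEM with 1.5% knockout serum replacement according to the labels, and received Matrigel at 2% on day 1. The study's methods instead give that medium to knockout organoids and a chemically defined one to the initial organoids, so the medium of these libraries is uncertain. Each sample pooled 24 organoids and was sorted for live single cells. Day 0, day 1, day 2 and day 3 samples held all live cells, whereas day 4 and day 5 samples were also split by GFP into a GFP-positive and a GFP-negative sample. GFP-negative samples are not free of weakly fluorescent cells, because the cut was set for yield, and few day 3 cells were GFP-positive. The day 3 to day 4 GFP-positive difference therefore combines 1 day of culture with a sort for Rax-GFP, and these cannot be told apart in this comparison alone. The day 4 GFP-negative samples are given beside it for that reason.

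The eye field is the region of the anterior neural plate from which both optic vesicles form. It is marked by a group of eye-field transcription factors (EFTFs) that includes Rax, Pax6, Six3, Six6 and Lhx2, and loss of Rax or Lhx2 stops eye formation in the mouse. Cells reach this state from pluripotency by way of an epiblast-like and then a neuroectodermal state, during which E-cadherin gives way to N-cadherin. Wnt, Nodal and FGF signals otherwise steer the same cells towards mesendoderm or the posterior neural plate.

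The reporter gene was checked first. Rax measured 156, 89.3 and 101 normalized counts in the 3 day 3 libraries and 9967, 9609 and 9100 in the 3 day 4 GFP-positive libraries, against a mean of 975 in day 4 GFP-negative cells. The gate and the Rax transcript thus ran together in every library, with no overlap between groups. Normalized counts are the authors' kallisto estimates divided by DESeq2 size factors; they compare a gene between libraries and are not corrected for gene length. They summed to between 43337657 and 47452002 in the 6 libraries, from an estimated 37000000 to 50500000 assigned reads. Rank correlations were 0.981 to 0.993 between libraries of a group and 0.938 to 0.949 between the groups. Day 3 replicate 1 stood slightly apart from its group: its 15 mitochondrially encoded transcripts summed to 791768 normalized counts, against 2843180 and 2065400 in the other day 3 libraries and 1162380 to 1294640 in day 4 GFP-positive cells. The part of this in the results was not tested. Counts of calls without that library are given below.

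More genes fell than rose. Of 21005 genes tested, each with 10 normalized counts or more in 3 or more libraries, 700 were higher in day 4 GFP-positive cells, which is 3.33% of those tested, and 1545 were lower, which is 7.36%. Genes are counted here as table entries: 196 of those tested lay on patch or alternate sequences, where a gene can be listed again, and the rises and falls held 696 and 1531 distinct symbols. A gene was called when limma gave a Benjamini-Hochberg adjusted p under 0.001 and a log2-fold-change beyond 1.5 in size, on log2(normalized count + 1); changes are given below on that scale as the estimate ± SE from this fit, with n = 3 libraries per group. The median log2-fold-change was 2.39 among the genes that rose, -2.71 among those that fell and -0.01 over all genes tested. Changes beyond 3 were reached by 204 of the rises and 618 of the falls. Protein-coding genes made up 625 of the rises and 1293 of the falls. For each called gene the libraries of both groups did not overlap, which also held for 54.4% of all genes tested. Without day 3 replicate 1, 656 genes rose and 1390 fell, of which 618 and 1341 were among those called with all libraries. Of the called genes named below, Acvr2a, Aldh1a1, Bmp5, Cbx8, Dnmt3a, Ezh1, Lhx9, Mixl1, Rarb, Snai2, Sox10, Tgfb3 and Wnt3 lost the call in at least 1 alternative fit. These fits kept the thresholds. A test against the fold threshold itself (limma's treat) left 163 rises and 464 falls and was not followed for single named genes. In bulk RNA, fewer cells of a type and less RNA per cell cannot be told apart, and this holds for every fall described here.

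**Figure D1:**
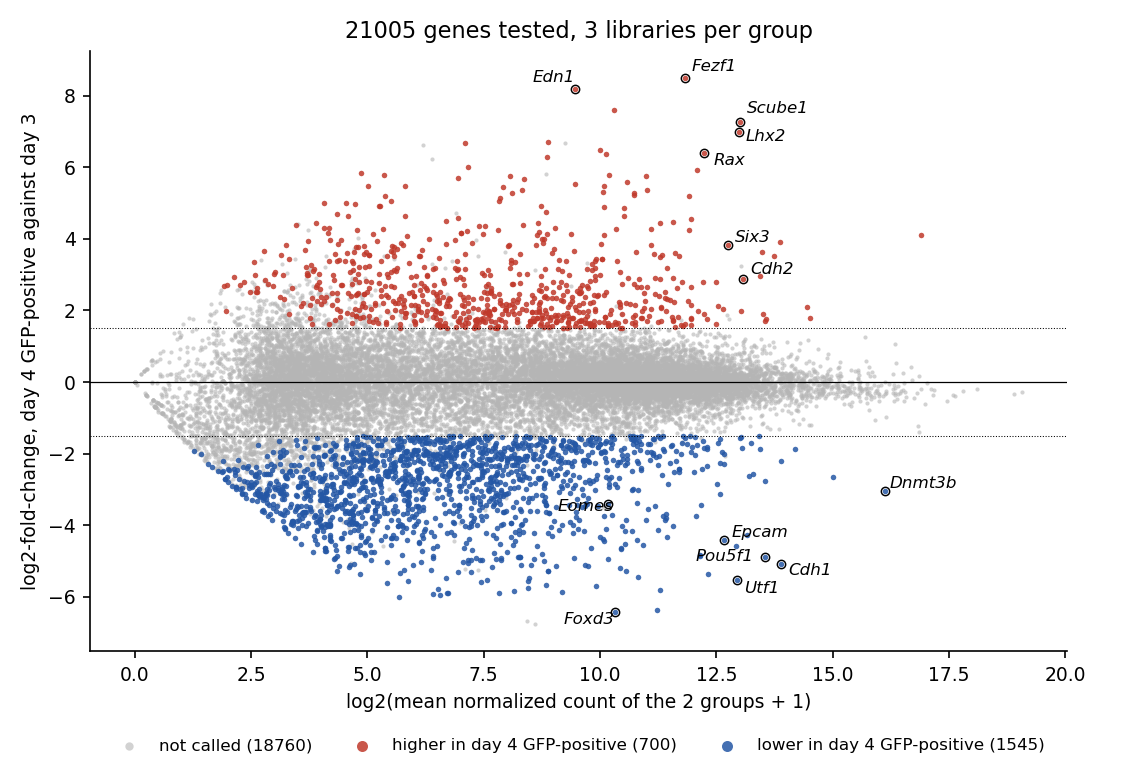
Log2-fold-change of each of 21005 genes in day 4 GFP-positive against day 3 cells (y axis) against its mean level on a log2 scale (x axis), with 700 genes called higher in red, 1545 called lower in blue and dotted lines at the fold-change threshold of 1.5. Fezf1, Edn1, Scube1, Lhx2 and Rax lie at the top and Foxd3 at the bottom, and Dnmt3b is the fall furthest to the right.

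The 10 largest rises among called protein-coding genes with a mean of at least 500 normalized counts in the higher group were Fezf1, Edn1, Nr2f2, Scube1, Lhx2, Pcdh17, Aldh1a2, Rax, Fezf2 and Nr2f1. Of these 10, 6 encode transcription factors. Fezf1, a zinc-finger repressor of the forebrain, went from 23.2, 26.1 and 11.4 normalized counts to 7576, 7450 and 6670, a log2-fold-change of 8.49 ± 0.44 (limma adjusted p = 3.5e-12). Edn1, which encodes the secreted peptide endothelin 1, went from 2.44, 5.67 and 3.79 to 1223, 1406 and 1576 (8.19 ± 0.55). Scube1, a secreted and membrane-bound glycoprotein, went from 107, 95.4 and 119 to 15711, 16702 and 16903 (7.25 ± 0.12). For these 3 genes the lowest GFP-positive library lay far above the highest day 3 library, and Edn1 was close to absent on day 3. Nr2f2 and Nr2f1, orphan nuclear receptors of the forebrain, rose by 7.60 ± 0.38 and 6.28 ± 0.46, to means of 2516 and 915. Pcdh17, a protocadherin, went from 7.34, 5.73 and 11.4 to 861, 1064 and 867. Aldh1a2, an enzyme that makes retinoic acid, went from 14.6, 40.9 and 16.1 to 1918, 2233 and 1886. Outside that ranking, Mest, an imprinted gene expressed from the paternal allele, was singled out after its values were seen because it was the most abundant of all rises: 11390, 14802 and 14273 normalized counts on day 3 and 225485, 239639 and 228527 in day 4 GFP-positive cells (4.11 ± 0.17). Its mean had stayed between 13481 and 16166 from day 0 to day 3.

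Of 30 eye-field and anterior forebrain transcription factors tested, 20 rose and 1 fell, with a median log2-fold-change of 3.63. Lhx2, a LIM-homeodomain factor needed for the optic vesicle, went from 95.1, 186 and 110.1 to 16110, 16692 and 15182 (6.99 ± 0.30, limma adjusted p = 1.8e-13). Pax6, the paired-box regulator of eye development, went from 114, 162 and 150.4 to 8939, 7774 and 8838 (5.91 ± 0.24). Six3, a homeodomain repressor of Wnt genes in the forebrain, went from 709, 1198 and 889 to 12441, 13426 and 12578 (3.81 ± 0.25). The 3 genes thus started from different levels: Six3 was already well expressed in every day 3 library. Six6, a close relative of Six3, went only from 22.0, 20.5 and 24.7 to 192, 245 and 196 (3.17 ± 0.46), and its mean reached 5550 in day 5 GFP-positive cells. Hesx1, an early anterior repressor, took the reverse course after day 4. It rose from a mean of 1092 to 5090 (2.23 ± 0.19) and was at 759 in day 5 GFP-positive cells. Emx2, Otx1 and Fezf2, all regulators of the telencephalon, rose by 5.54 ± 0.66, 5.35 ± 0.33 and 6.37 ± 0.36. The single fall was that of Lhx9, at 49.4, 48.4 and 38.5 on day 3 and 2.48, 10.8 and 15.4 in day 4 GFP-positive cells (-2.40 ± 0.52), which missed the call in most alternative fits. Otx2, the head organizer and forebrain gene, was already at 14056 on day 3 and did not pass the test, at 15258 in day 4 GFP-positive cells (limma adjusted p = 0.36).

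**Figure D2:**
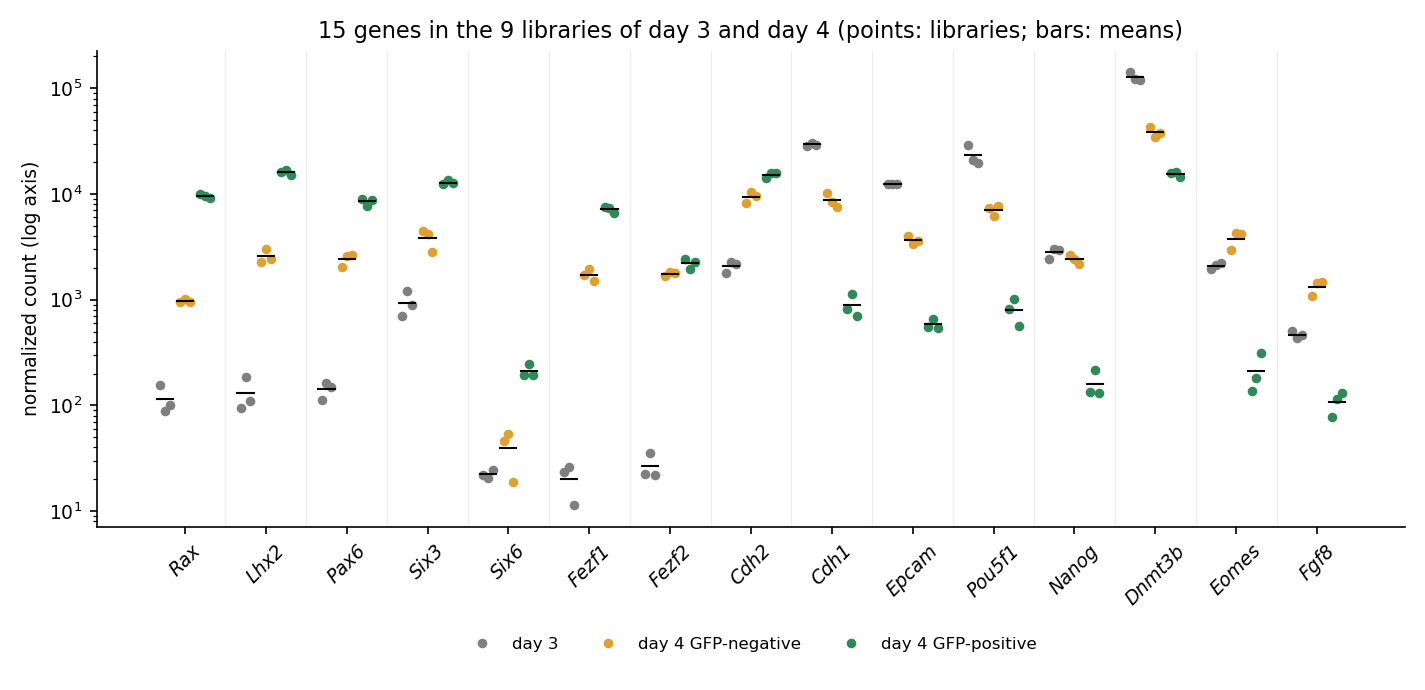
Normalized counts on a log axis (y) of 15 genes (x) in the 3 libraries each of day 3, day 4 GFP-negative and day 4 GFP-positive cells; points are libraries and bars their means. Rax, Lhx2, Pax6 and Fezf1 climb from day 3 through GFP-negative to GFP-positive cells, Fezf2 stands at a like level in both gates, and Eomes and Fgf8 are lower in GFP-positive cells than in both other groups, while their higher GFP-negative levels were not called against day 3.

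The 10 largest falls by the same rule were Foxd3, Enpp2, Galnt3, Tdh, Dppa2, Cldn4, Bcl11a, Foxi3, Utf1 and Morc1. Foxd3, a forkhead factor of the epiblast, went from 2680, 2498 and 2351 normalized counts to 20.5, 42.1 and 26.6 (-6.41 ± 0.32, limma adjusted p = 1.6e-12). Tdh, the threonine dehydrogenase on which mESCs depend, went from 5092, 4799 and 4765 to 52.4, 231 and 52.3 (-5.81 ± 0.38). Utf1, a chromatin factor of pluripotent cells, went from 18760, 14530 and 12894 to 291, 583 and 208 (-5.53 ± 0.26). The groups did not overlap for any of these 3 genes, but replicate 2 of the GFP-positive cells was the highest of its group each time. Enpp2, which encodes autotaxin, and Galnt3, a glycosyltransferase, fell by 5.87 and 5.84 on the log2 scale. Dppa2, an activator of early embryonic genes, and Morc1, a repressor of transposons in germ cells, fell by 5.76 and 5.48, and Bcl11a and Foxi3, a zinc-finger and a forkhead factor, by 5.67 and 5.55.

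Pluripotency genes made up the lists with the lowest medians. Among 18 naive pluripotency factors, 16 fell and 0 rose (median -4.22). Among 28 general and formative pluripotency genes, 19 fell and 0 rose (median -2.20). Pou5f1, the POU factor of pluripotent cells, went from 28985, 20854 and 19799 to 811, 1005 and 560.0 (-4.89 ± 0.18). Nanog, its homeodomain partner, went from 2432, 3013 and 2952 to 133, 214 and 129.7 (-4.16 ± 0.20). Esrrb, an orphan nuclear receptor of the naive state, went from 3067, 2522 and 2488 to 78.1, 219 and 71.6 (-4.63 ± 0.31). For these 3 genes every GFP-positive library lay far below every day 3 library, while Nanog stood at a mean of 2434 in GFP-negative cells, close to its day 3 mean of 2799. Klf4, a Krüppel-like factor, fell less far, from 402, 418 and 334 to 72.7, 106 and 131 (-1.92 ± 0.21). Fgf5, the marker of the formative epiblast, went from 5326, 5309 and 5166 to 248, 284 and 246, and Dppa3, which is expressed in naive cells and the germ line, from 172, 206 and 227 to 0, 11.7 and 2.15. Dnmt3b, the de novo DNA methyltransferase of the epiblast, was the most abundant fall, from a mean of 128195 to 15441 (-3.05 ± 0.29). Gbx2 and Pou3f1, homeodomain and POU factors that the early neural plate also uses, did not reach the fold-change threshold (-1.42 ± 0.29 and -1.37 ± 0.18).

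Residual naive transcripts were uneven among the GFP-positive libraries. The 18 naive factors summed to 1034, 1995 and 1325 normalized counts in replicates 1, 2 and 3, against 20238 to 21295 in day 3 libraries and 10159 to 11804 in day 4 GFP-negative libraries. Replicate 2 was the highest of the 3 for 14 of the 16 naive factors that fell and for 17 of the 19 formative ones, and for 768 of all 1545 falls, against 6671 of 21005 genes tested. Without that library, 611 genes rose and 1431 fell. For the naive sum every GFP-positive library, replicate 2 included, thus lay below the day 3 and the GFP-negative libraries. The 28 general and formative genes, which include abundant ones that were not called, summed to a more even 130388, 136424 and 131034 in GFP-positive libraries, against 176033 to 196139 in GFP-negative libraries.

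Promoter sequence was compared between the sets, since vertebrate promoters are of a CpG-rich or a CpG-poor kind. RefSeq promoters of build GRCm38.p6 (the 250 bases before the first listed start) were matched by symbol to 13996 of the genes tested, 472 of the rises and 1041 of the falls. The median promoter had 14 CpG dinucleotides over all genes tested, 13 among the rises and 8 among the falls. Promoters with under 5 CpG made up 18.4% of all, 18.9% of the rises and 30.45% of the falls. These counts are a description, and the expression levels of the sets were not matched. The promoters of 5 named genes are given as examples: Six6 and Fezf1 among the rises, and among the falls Nanog with few CpG, Cldn4 near their median and Foxd3, the largest fall, with many; each is 5′ to 3′ on the gene's strand, in lower case with every CpG in capitals.
Six6, chr12:72939632-72939881, plus strand: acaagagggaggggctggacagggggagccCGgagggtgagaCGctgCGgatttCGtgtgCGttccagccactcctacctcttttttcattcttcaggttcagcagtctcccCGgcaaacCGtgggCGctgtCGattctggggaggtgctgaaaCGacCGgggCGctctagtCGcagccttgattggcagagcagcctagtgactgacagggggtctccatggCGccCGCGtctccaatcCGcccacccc
Fezf1, chr6:23248265-23248514, minus strand: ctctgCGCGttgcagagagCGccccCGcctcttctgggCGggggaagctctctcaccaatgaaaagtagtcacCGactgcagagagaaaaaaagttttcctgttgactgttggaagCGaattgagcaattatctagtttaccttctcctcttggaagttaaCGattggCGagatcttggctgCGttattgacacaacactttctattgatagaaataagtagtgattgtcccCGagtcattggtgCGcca
Nanog, chr6:122707239-122707488, plus strand: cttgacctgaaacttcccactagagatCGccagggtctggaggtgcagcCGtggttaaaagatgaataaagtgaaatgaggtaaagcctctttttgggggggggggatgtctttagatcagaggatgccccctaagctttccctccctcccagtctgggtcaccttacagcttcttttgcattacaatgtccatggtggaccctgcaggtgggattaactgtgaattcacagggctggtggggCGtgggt
Cldn4, chr5:134946935-134947184, minus strand: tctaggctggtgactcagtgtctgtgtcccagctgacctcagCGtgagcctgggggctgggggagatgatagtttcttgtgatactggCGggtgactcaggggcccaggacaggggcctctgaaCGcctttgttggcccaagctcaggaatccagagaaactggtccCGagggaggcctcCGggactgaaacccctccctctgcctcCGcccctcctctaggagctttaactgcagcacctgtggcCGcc
Foxd3, chr4:99656049-99656298, plus strand: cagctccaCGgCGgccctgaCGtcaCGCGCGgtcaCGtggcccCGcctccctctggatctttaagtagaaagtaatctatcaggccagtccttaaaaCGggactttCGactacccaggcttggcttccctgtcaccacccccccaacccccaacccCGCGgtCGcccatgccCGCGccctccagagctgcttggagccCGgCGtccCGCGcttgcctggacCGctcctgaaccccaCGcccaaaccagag
Their CpG counts were 17 for Six6, 12 for Fezf1, 3 for Nanog, 7 for Cldn4 and 21 for Foxd3. The homeodomain core TAATTA, which reads the same on both strands, occurred in 2.86% of all promoters, 3.18% of those of rises and 3.84% of those of falls. The octamer ATTTGCAT, searched on both strands, occurred in 1.35%, 2.33% and 2.31%. None of the 5 promoters printed held an exact match of either. Only exact matches were counted: the Nanog promoter holds TTTTGCAT, which differs from the octamer in its first base. The counts therefore do not show that sites of either kind are absent. Exact matches of both motifs were rare in these windows in all sets.

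Epithelial adhesion genes fell while cadherins of neural cells rose. Of 34 epithelial junction and cadherin genes tested, 18 fell (52.9%) and 3 rose (8.82%, against 3.33% of all genes tested), with a median of -2.10. The 3 rises were the cadherins Cdh6, Cdh11 and Cdh2. Cdh1, which encodes E-cadherin, went from 28483, 30552 and 29310 normalized counts to 822, 1121 and 704 (-5.09 ± 0.29, limma adjusted p = 1.1e-11). Cdh2, which encodes N-cadherin, went from 1778, 2291 and 2173 to 14153, 15772 and 15679 (2.88 ± 0.17). Cdh6, a cadherin of the early neural plate, went from 109.9, 93.3 and 62.6 to 3074, 3290 and 3503 (5.23 ± 0.24). Every GFP-positive library thus had less E-cadherin and more N-cadherin transcript than every day 3 library. Epcam, an epithelial adhesion molecule, went from 12441, 12448 and 12492 to 556, 652 and 544 (-4.42 ± 0.12). The tight-junction claudins Cldn4, Cldn6 and Cldn7 fell by 5.70, 4.83 and 4.45 on the log2 scale, and P-cadherin, Cdh3, by 4.94. Esrp1, a splicing factor of epithelial cells, fell by 2.42, and Grhl2, a transcription factor that maintains epithelia, by 4.10. Of 41 collagens, laminins, fibronectin and integrins, 5 rose (12.2%) and 3 fell (7.32%), the latter close to the 7.36% over all genes tested (median -0.35). Col2a1, a fibrillar collagen, went from a mean of 1073 to 6822 and Col1a2 from 220.0 to 4769. Fn1, fibronectin, had means of 14358 and 13074 and was not called.

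Markers of other lineages were examined in lists, against 3.33% higher and 7.36% lower over all genes tested. Of 24 mesendoderm and primitive-streak regulators, 8 fell and 0 rose (median -1.51). Eomes, a T-box factor of the streak, was at 1950, 2128 and 2236 on day 3, at 137, 182 and 311 in day 4 GFP-positive cells and at a mean of 3784 in day 4 GFP-negative cells. Mixl1, a homeobox gene of the streak, had means of 278, 40.9 and 825 in that order, and Foxa2, a forkhead factor of endoderm, of 156, 32.6 and 494. For these 3 genes GFP-positive cells were called below day 3; the GFP-negative means were above it, but none of the 3 was called higher there than on day 3. The summed level of the list was 4875 to 5776 on day 3, 836 to 1809 in GFP-positive and 13510 to 21162 in GFP-negative libraries, with no overlap. No member of it was at 0 in every GFP-positive library. Among 19 extraembryonic endoderm and trophoblast markers 6 fell and 0 rose. Their sum, mostly from matrix genes that many cells use, overlapped between the groups, at 24968 to 48483 on day 3 and 22767 to 27578 in GFP-positive libraries. Among 16 endothelial and blood markers 6 fell and 0 rose, and the sum went from between 1971 and 2312 to between 758 and 856. Cubn, an endocytic receptor of visceral endoderm, varied within day 3, at 2722, 2350 and 971, and was at 32.9, 211 and 93.5 in GFP-positive cells. Of 22 surface ectoderm and neural crest markers, 5 fell (22.7%) and 2 rose (9.09%), and the sum went from between 12982 and 16506 to between 5692 and 6087. The falls included Foxd3, which is also on the formative list, and Grhl2, which was already at a mean of 2786 on day 0, so this list is not specific to those lineages. The rises were Sox10 and Snai2, to means of 174 and 51.8 normalized counts, but both lost the call without day 3 replicate 2, or without either of replicates 2 and 3 of the GFP-positive cells. The part of a changed make-up of cells in these falls was not tested.

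Regulators of the midbrain, hindbrain and posterior neural plate split. Of 28 tested, 6 fell (21.4%, against 7.36% of all genes tested) and 4 rose (14.3%, against 3.33%), with a median of 0.68. En2, a homeobox gene of the midbrain-hindbrain border, went from 524, 543 and 536 to 26.1, 46.7 and 45.5 (-3.77 ± 0.19). Lmx1b, a LIM-homeodomain factor, went from 1576, 1633 and 1394 to 248, 176 and 235 (-2.81 ± 0.28), having been at a mean of 199 on day 2. Irx3, an Iroquois factor found behind the eye field, went from 506, 485 and 341 to 91.7, 115 and 92.9 (-2.13 ± 0.26), having been at 61.8 on day 2. Lmx1b and Irx3 were therefore higher on day 3 than on day 2, and the lower level on day 4 was that of the GFP-positive gate, since GFP-negative means were 1340 and 1011 against 1534 and 444 on day 3. Pax2, a paired-box gene of the border and of the optic stalk, went the other way, from 80.7, 86.8 and 85.7 to 3163, 3426 and 3275 (5.27 ± 0.37). The further rises were Nkx6-1, Gbx1 and Pax3, with means of 97.1, 31.7 and 133 in GFP-positive cells. Nkx6-1 and Pax3 reached 377 and 465 in GFP-negative cells. Between the gates of day 4, 20 of the 28 were called lower on the GFP-positive side by the same criteria, against 3.63% of all genes tested.

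**Figure D3:**
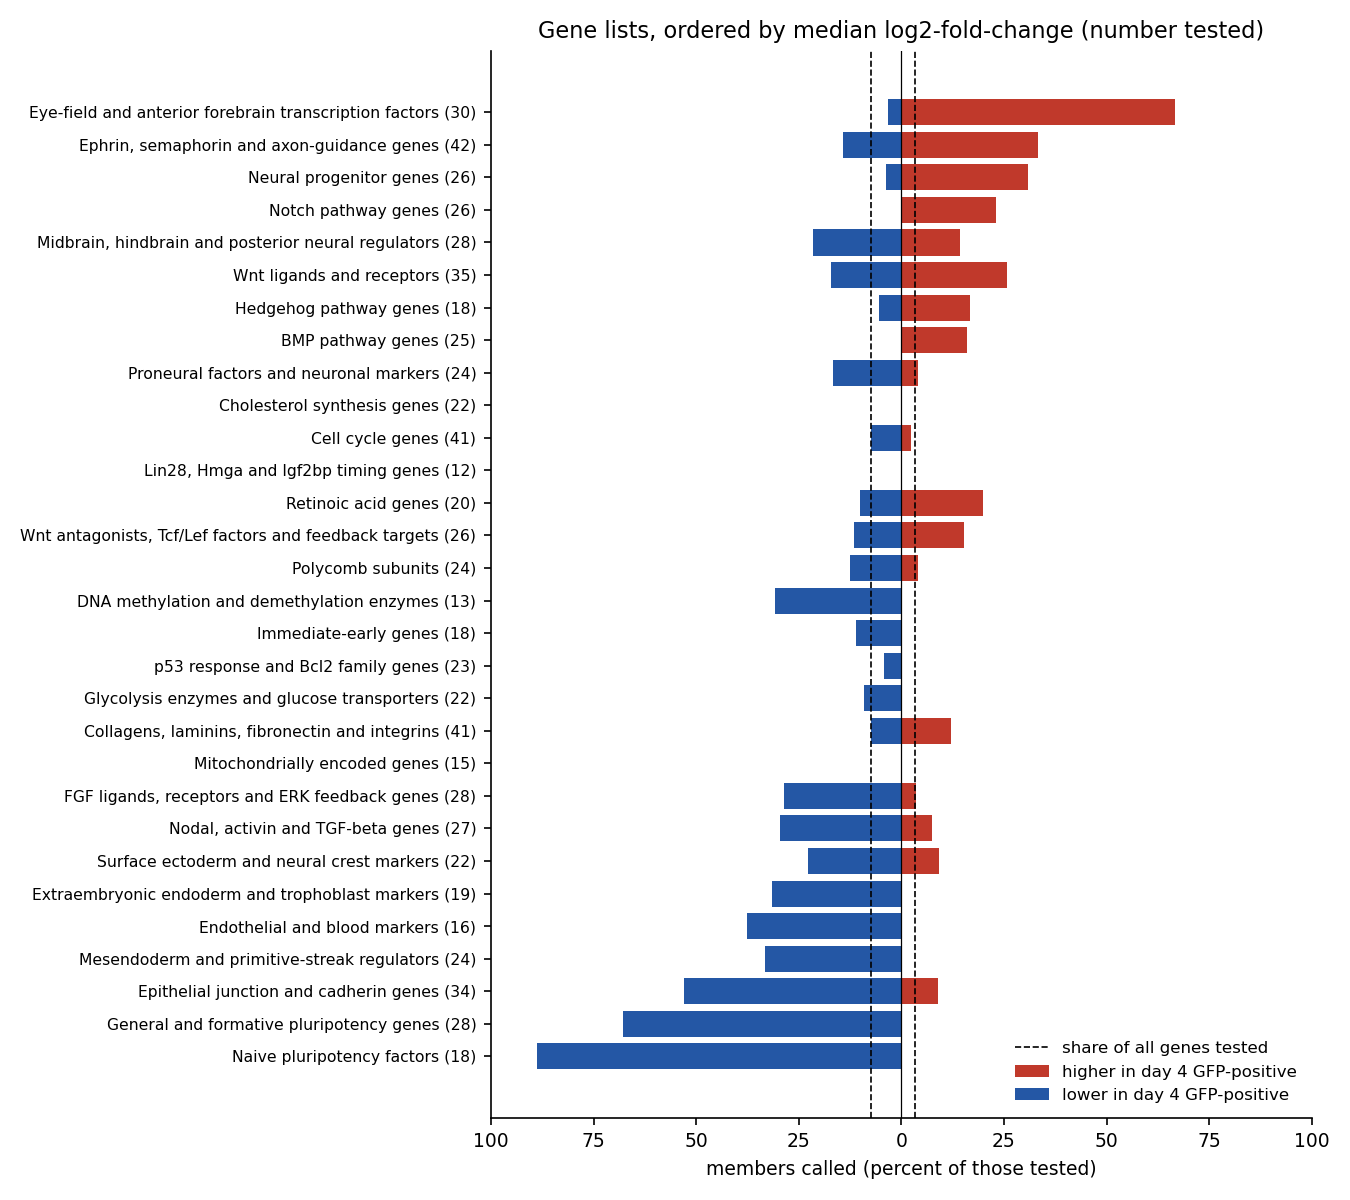
Share of the tested members of 30 gene lists (y axis, number tested in brackets) called higher (red, to the right) or lower (blue, to the left) in day 4 GFP-positive than in day 3 cells, in percent (x axis), ordered by the median log2-fold-change. Dashed lines mark the shares over all genes, 3.33% and 7.36%; eye-field factors lie at the top with 66.7% higher and naive pluripotency factors at the bottom with 88.9% lower.

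Neural progenitor genes rose in part. Of 26 tested, 8 rose (30.8%, against 3.33% of all genes tested) and 1 fell (3.85%, below the 7.36% of all), with a median of 1.03. Sox1, the SOXB1 factor of the neural plate, went from 126, 146 and 110.4 to 2490, 2551 and 2336 (4.27 ± 0.36), and Sox21 from 77.0, 79.9 and 62.7 to 3806, 3946 and 4191 (5.75 ± 0.16). Ptn, the growth factor pleiotrophin, went from 369.9, 539.7 and 546 to 5953, 5810 and 5545 (3.59 ± 0.47). The member that fell was Fabp7, a fatty-acid binding protein of radial glia, at 152, 95.2 and 120.4 on day 3 and 5.73, 9.03 and 17.2 in GFP-positive cells. Of 24 proneural factors and neuronal markers, Insm1 rose (4.17%, against 3.33% of all genes tested) and 4 fell (16.7%, against 7.36%), and the largest of the falls was at 13.7 to 23.0 normalized counts on day 3. Tubb3, a neuronal tubulin, was at means of 1313 and 3645 and stayed just under the fold-change threshold (1.48 ± 0.12). Of 26 Notch pathway genes, 6 rose (23.1%, against 3.33%) and 0 fell (median 0.76). The ligands Dll1 and Jag1 rose from means of 322 and 509 to 1529 and 3240. Lfng, which modifies the receptors, rose by 2.91 ± 0.16. Hes5, a target of the pathway, rose by 2.52 ± 0.43 and Hes3 by 4.35 ± 0.28. Hes3 stood higher in GFP-negative cells, at a mean of 745 against 319 in GFP-positive cells. Notch1, a receptor, had means of 2204 and 3761 and was not called.

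Of 28 FGF ligands, receptors and ERK feedback genes, 8 fell (28.6%, against 7.36% of all genes tested), 1 rose (3.57%, close to the 3.33% of all) and 19 were not called (median -0.54). The ligand Fgf8 went from 505, 434 and 463 to 78.4, 114 and 131 (-2.13 ± 0.30) and the ligand Fgf4, a gene of the naive state, from 1676, 1721 and 1608 to 41.8, 76.0 and 31.0 (-5.14 ± 0.23). Among the feedback genes, Spry4 went from 1600, 1551 and 1406 to 65.9, 112 and 78.1 (-4.17 ± 0.17) and Dusp6 from 2854, 3366 and 3314 to 509, 607 and 631 (-2.45 ± 0.15). These ligands and feedback genes thus fell in every GFP-positive library, whereas the receptor Fgfr2, with means of 3978 and 7756, was not called (0.97 ± 0.13). Of 27 Nodal, activin and TGF-beta genes, 8 fell (29.6%), 2 rose (7.41%) and 17 were not called (median -0.70). Nodal, the ligand, went from 525, 429 and 394 to 19.3, 47.6 and 23.2 (-3.95 ± 0.29) and its co-receptor Tdgf1 from 3614, 3572 and 3978 to 75.5, 280.1 and 188 (-4.54 ± 0.39). The feedback inhibitors Lefty1 and Lefty2 fell by 2.56 and 3.14 on the log2 scale. The rises were Acvr2a, a receptor, and Tgfb3, a ligand, each barely past the fold-change threshold (1.52 ± 0.14 and 1.51 ± 0.28).

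Of 25 BMP pathway genes, 4 rose (16%) and 0 fell by limma's call (median 0.37), while 11 were higher and 4 lower at an adjusted p under 0.05. Grem1, a secreted BMP antagonist, went from 31.8, 76.5 and 58.0 to 1958, 2241 and 2067 (5.30 ± 0.37), the largest change of the list. The ligands Bmp7 and Bmp5 rose from means of 275 and 20.6 to 1226 and 131, and both stood higher in GFP-negative cells, at 1627 and 487. Smad9, a signal transducer, rose by 2.76 ± 0.33. Bmp4, a further ligand, had means of 537 and 264 and was not called (-1.04 ± 0.20). Of 18 hedgehog genes, 3 rose (16.7%) and 1 fell (5.56%, below the 7.36% of all genes tested). Gli3, the main repressor of the pathway, went from a mean of 2495 to 10313, Gas1, a co-receptor, from 988 to 4115, and Hhip, a decoy receptor, from 14.8 to 169.9. Of 20 retinoic acid genes, 4 rose (20%, against 3.33% of all genes tested) and 2 fell (10%, against 7.36%). Beside Aldh1a2, the binding protein Crabp2 rose from 3339 to 13320. Aldh1a1 and the receptor Rarb rose to means of only 19.2 and 9.26 normalized counts, and the receptor Rxrg fell from 538 to 81.2.

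Of 35 Wnt ligands and receptors, 9 rose (25.7%, against 3.33% of all genes tested) and 6 fell (17.1%, against 7.36%), with a median of 0.49. The ligand Wnt8b, expressed in the dorsal forebrain, went from 2.44, 2.28 and 5.70 to 195, 256 and 393 (limma adjusted p = 5.5e-11) and was higher still in GFP-negative cells, at a mean of 1068. Wnt5b, a ligand of the beta-catenin-independent branch, went from 131, 116 and 109 to 2088, 2074 and 1977 (4.10 ± 0.20). The posterior and streak ligands Wnt3 and Wnt8a fell by 2.23 and 3.25 on the log2 scale, to means of 23.2 and 16.6, against 358 and 303 in GFP-negative cells. Wnt8b and Wnt5b thus rose where Wnt3 and Wnt8a fell. The receptor Fzd5, which is used in the eye field, rose from 5170, 5929 and 5464 to 18784, 19862 and 17607 (1.76 ± 0.23) and Fzd4 from 316, 449.7 and 457 to 4232, 4699 and 5269 (3.55 ± 0.14). Of 26 antagonists, Tcf/Lef factors and feedback targets, 4 rose (15.4%) and 3 fell (11.5%), with a median of -0.05. The 4 rises were those of secreted or intracellular antagonists: Dkk1 (3.15 ± 0.19), Frzb (3.52 ± 0.53), Sfrp1 (1.89 ± 0.09) and Shisa2 (3.51 ± 0.20). Dkk1 stood higher in GFP-negative cells, at a mean of 1846 against 985 in GFP-positive cells. Shisa2, which holds Frizzled and FGF receptors back from the cell surface, went from 1974, 2557 and 2121 to 25196, 25136 and 25129. The feedback targets Axin2 and Lef1 were not called (0.26 ± 0.21 and -0.61 ± 0.19), whereas Notum, a Wnt-inactivating enzyme and target, fell by 2.14.

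Cell-surface guidance genes changed in number. Of 42 ephrin, semaphorin and axon-guidance genes, 14 rose (33.3%, against 3.33% of all genes tested) and 6 fell (14.3%, against 7.36%), with a median of 1.07. Efnb2, an ephrin that separates cell populations, went from 1598, 1887 and 1600 to 19609, 21712 and 22066 (3.64 ± 0.15). Robo3, a Slit receptor family member, rose from 441 to 3193, and Dcc, a netrin receptor, from 10.1 to 106. Among the falls, the ephrin receptors Epha1 and Epha2 went from means of 3865 and 874 to 328 and 136. Efnb2 thus rose where Epha1 and Epha2 fell, but not all ephrin receptors of the list fell, and ephrins and receptors were not compared as groups.

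Cell cycle genes were called about as often as all genes tested. Of 41, 1 rose (2.44%, against 3.33%) and 3 fell (7.32%, against 7.36%), with a median of 0.17. The rise was Cdkn1c, a cyclin-dependent kinase inhibitor, from 516, 364 and 264 to 1786, 1403 and 1366 (2.03 ± 0.22), and the falls included Cdk6 (-2.67 ± 0.30). The cyclins Ccnd1 and Ccnd2 were not called, with -0.69 ± 0.27 for Ccnd1 and 1.91 ± 0.48 for Ccnd2 (limma adjusted p = 0.003). No member of the 22 cholesterol synthesis genes, the 12 Lin28, Hmga and Igf2bp timing genes or the 15 mitochondrially encoded genes was called by limma, although 8, 6 and 2 of them had an adjusted p under 0.05, as had 37.9% of all genes tested (17.1% with a rise and 20.9% with a fall). Of 22 glycolysis genes, Ldhb and Pfkp fell (9.09%), from means of 20719 and 7551 to 3046 and 2089. Of 23 p53 response and Bcl2 family genes, 1 fell (4.35%, below the 7.36% of all genes tested). This was Pmaip1, a pro-apoptotic BH3 protein, from 2581, 3039 and 3341 to 373, 390.2 and 366 (-2.98 ± 0.16). Of 18 immediate-early genes, which respond to handling, 2 fell (11.1%, against 7.36% of all genes tested) and 0 rose (median -0.22). Of 13 DNA methylation enzymes, 4 fell (30.8%, against 7.36%). Besides Dnmt3b, these were its cofactor Dnmt3l (-3.37 ± 0.18), Dnmt3a (-1.55 ± 0.24) and Gadd45g (-2.53 ± 0.30). Of 24 Polycomb subunits, 3 fell (12.5%, against 7.36%) and 1 rose (4.17%, close to the 3.33% of all genes tested). Cbx7 and Phc1 fell by 2.44 and 2.19 on the log2 scale, Ezh1 by 1.50, and Cbx8 rose by 1.66.

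The day 4 GFP-negative samples place the changes beside those in the other gate. Since day 3 is common to both, the GFP-positive against GFP-negative contrast tests whether the change from day 3 differed between gates; over all genes tested it called 0.328% higher and 3.63% lower in GFP-positive cells. Among the 700 genes that rose, 67 (9.57%) were called higher than in GFP-negative cells, with a median difference of 0.85 on the log2 scale. Among the 1545 that fell, 615 (39.8%) were called lower, with a median difference of -1.64, while the median over all genes tested was 0.01. These shares rest on the same GFP-positive libraries as the changes themselves. The genes that rose went from a median level of 58.0 normalized counts on day 3 to 193 in GFP-negative and 336 in GFP-positive cells, and those that fell from 136 to 67.2 and 19.4. Among abundant rises with a gate difference under 0.5, the largest changes were those of Fezf2, Emx2, Otx1, Sox1 and Zfp503, which encodes a forebrain zinc-finger protein. Their GFP-negative means were 1762, 1490, 3232, 1942 and 1764, against 2222, 1375, 4010, 2459 and 2128 in GFP-positive cells. Large gate differences among abundant rises included those of Pcdh17, Rax, Edn1 and Raxos1, a transcript annotated opposite Rax whose reads cannot be told from those of Rax without strand information. By the same rule the falls were Zbtb8a, Mt1, Rasgrp2, Arfgef3 and Pml, for which the gates lay within 0.5 on the log2 scale. They encode unrelated proteins, among them the metal-binding metallothionein Mt1. Of the 1545 falls, 5 (0.324%) were called higher than day 3 in GFP-negative cells, against 2% of all genes tested: Tnfrsf19, Dmbx1, Fzd10, Irx5 and the gene for the streak factor brachyury, listed after their values were seen. Tnfrsf19, a receptor of the TNF family, was at 1070, 1192 and 1099 on day 3, 220.5, 263 and 424 in GFP-positive cells and a mean of 4577 in GFP-negative cells. Of the genes that rose, Pax3, Nrp1, Nkx6-1 and Wnt8b were called higher on the GFP-negative side of the gate; Pax3 and Nrp1 were named after their values were seen, and Nrp1, a semaphorin receptor, had means of 39.9, 223 and 717 on day 3, in GFP-positive cells and in GFP-negative cells, in that order.

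**Figure D4:**
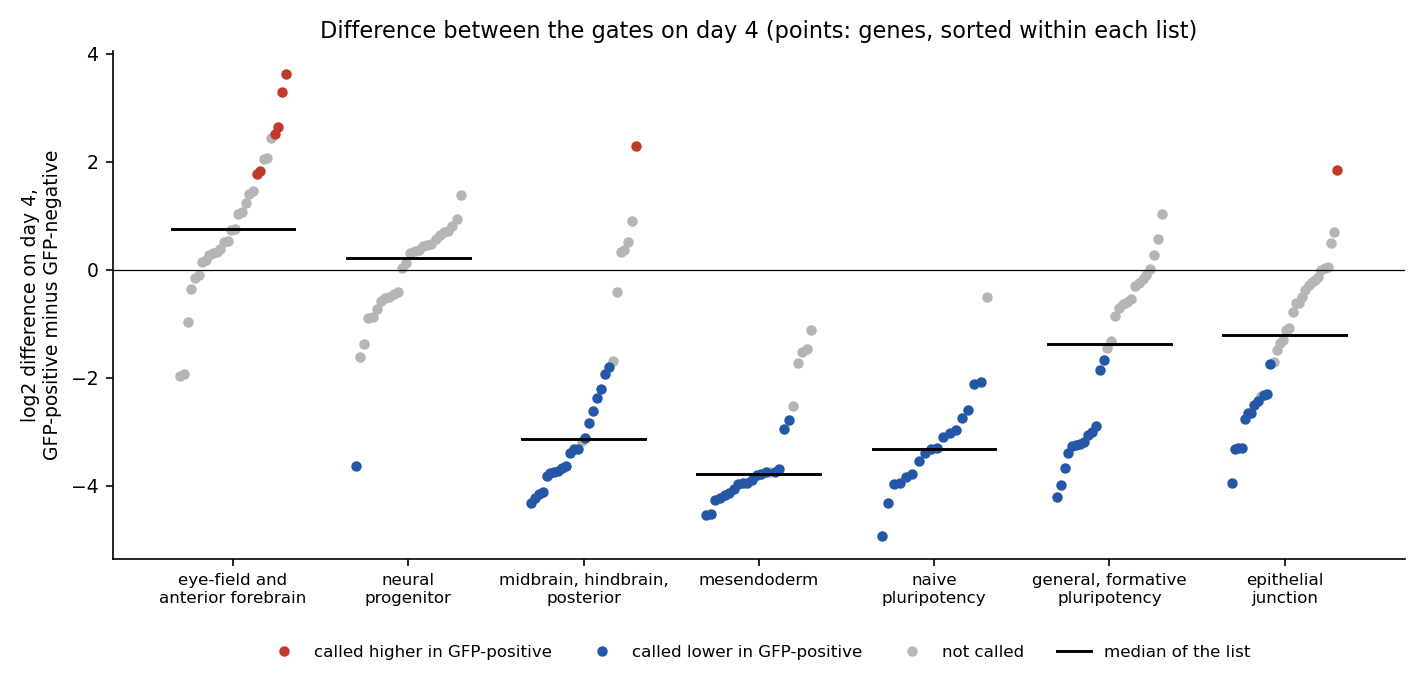
Log2 difference between day 4 GFP-positive and GFP-negative cells (y axis) for the tested genes of 7 lists (x axis), sorted within each list; black bars are medians and colours mark genes called higher (red) or lower (blue) in GFP-positive cells. Mesendoderm genes have the lowest median, -3.78, and 18 of 24 called lower, whereas eye-field factors have a median of 0.74 and 6 of 30 called higher.

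Libraries outside the groups compared gave the same directions for most called genes. They are not fully independent of the calls, since all libraries share the estimate of the spread. Between day 5 GFP-positive and day 2 cells, which share no library with those groups, 8.49% of all genes tested were higher and 12.2% lower. Of the 700 genes that rose between day 3 and day 4 GFP-positive cells, 628 (89.7%) were called higher in that contrast and 0 lower. Of the 1545 that fell, 1366 (88.4%) were called lower and 2 higher. The 2 were Cyp4v3 and C130021I20Rik, named after their values were seen, with means of 5.46 and 65.5 in day 4 GFP-positive cells and 135 and 122 on day 5. A gene that changed at any time from day 2 to day 5 counts here, so the share does not place the change between day 3 and day 4. From day 0 to day 2, when 3.06% of all genes tested were called higher and 3.01% lower, 56 of the rises had moved up and 55 down, and 143 of the falls had moved up and 149 down. Some of these counts depend on the fit: they were 31, 26 and 88 for rises up, rises down and falls down when only the groups compared were fitted, and the last was 96 without day 2 replicate 1 or without day 2 replicate 2. The median level of the genes that rose lay between 31.9 and 39.3 normalized counts on days 0 to 2, and that of the genes that fell between 184 and 232.

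**Figure D5:**
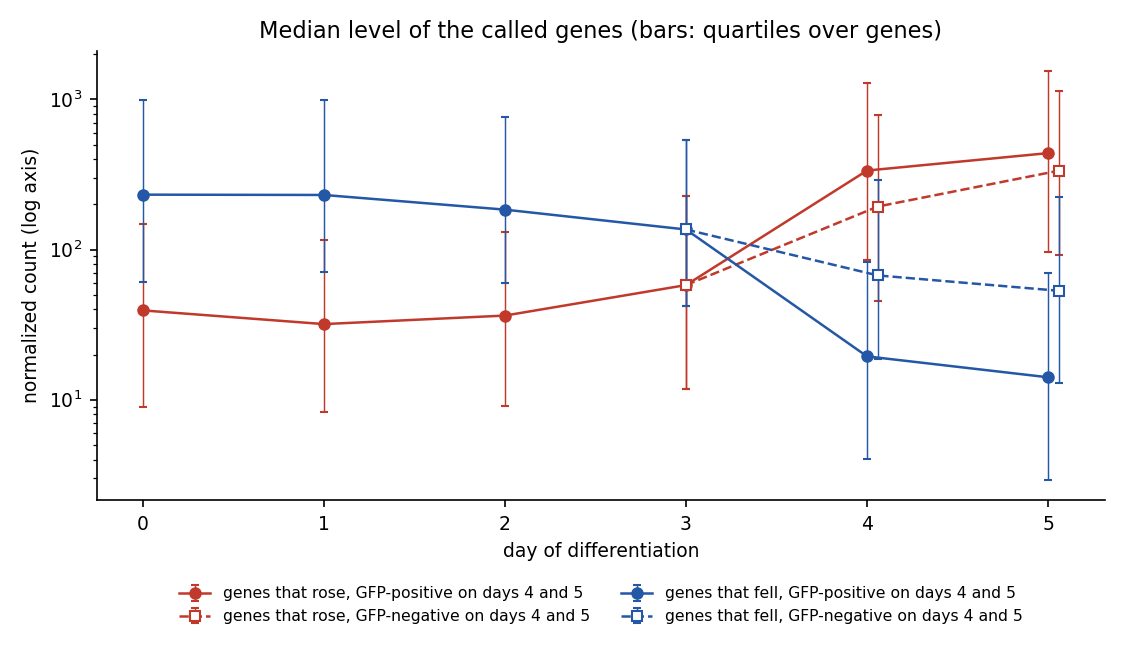
Median level of the 700 genes that rose (red) and the 1545 that fell (blue) between day 3 and day 4 GFP-positive cells (y axis, normalized counts on a log axis) by day of differentiation (x axis), with GFP-positive cells as filled circles and GFP-negative cells as open squares; bars are quartiles over genes. The levels at day 3 and in day 4 GFP-positive cells chose the genes, and GFP-negative cells lie between both on day 4.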

How the data were processed

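Poly(A) RNA from 24 pooled organoids per sample was sequenced as TruSeq libraries, in triplicates the study calls biological, so p-values measure the spread between such cultures. The authors estimated counts with kallisto 0.43.1, on mm10 per the labels, and the deposited values are those counts divided by DESeq2 size factors, treated here as signal. Strandedness is not given in the sources used here, so antisense genes are uncertain. Columns with the authors' own true-or-false calls (stable, successive-day and eye-field changes) were not used. Whole reads could not be recovered, since only 46.3% to 74.5% of low values in the 6 libraries came within 0.1 of a whole read, so no count test was run.

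Of 49705 entries, the 21005 that reached 10 normalized counts in 3 or more libraries were tested with limma 3.58.1 in R 4.3.3, on log2(value + 1), over all 24 libraries (16 residual degrees of freedom, intensity trend, Benjamini-Hochberg adjustment). Tests are two-sided. A call required a log2-fold-change beyond 1.5 in either direction at an adjusted p below 0.001. The scripts were tested on simulated data. The comparison and the gene lists were chosen with earlier results of these data known. Named genes were the 10 largest abundant protein-coding rises and falls, key list members, up to 3 called members per list and direction, 5 genes each with the largest or a small gate difference, and the eye-field and pluripotency genes that define the step; some genes that the rule names are not reported here. Promoters are from RefSeq, GRCm38.p6, matched by symbol. Pseudocounts, filters, quantile normalization, thresholds, a replicate block and left-out libraries were tried as alternatives. Day 1 and day 5 GFP-negative libraries entered only the fit and the levels given by day. The spread per gene is shared over all 24 libraries, so day 0 replicate 1 enters each SE and p-value. That library stood apart, with rank correlations of 0.954 and 0.953 to its group, against 0.988 between the other day 0 libraries. Without it, 754 genes rose and 1651 fell.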

Additional observations from a re-analysis of the deposited data

Results flagged for a closer look

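Of the 142 genes named in the report, 76 were singled out because their change from day 3 differed between the 2 gates of day 4 by limma's test (adjusted p at most 0.000707), 19 of them towards a higher and 57 towards a lower level in GFP-positive cells. Over all genes tested, 0.328% were called higher and 3.63% lower in that contrast; the named genes were chosen partly for large changes and large gate differences, so their share is raised by the choice. The values below are GFP-positive minus GFP-negative log2 differences, with n = 3 libraries per group; groups of 3 were too small to test single libraries for outliers.

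Among transcription factors higher in GFP-positive cells, the difference was 3.29 for Rax, 2.64 for Lhx2, 2.51 for Six6, 2.39 for Nr2f2, 2.29 for Gbx1, 1.82 for Pax6 and 1.77 for Six3, and it was 3.25 for the overlapping Raxos1. Cell-surface and matrix genes followed, with 3.29 for Pcdh17, 2.60 for Col1a2, 1.99 for Efnb2 and 1.84 for Cdh6. Secreted factors and signalling genes gave 3.12 for Edn1, 2.64 for Scube1, 2.27 for Grem1, 1.63 for Fzd4, 1.56 for Wnt5b and 1.55 for Shisa2, and Mest gave 1.62. Rax itself is the gene of the gate, so its difference checks the sort.

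Pluripotency genes were lower in GFP-positive cells, by -4.92 for Dppa3, -4.32 for Gbx2, -3.98 for Foxd3, -3.96 for Nanog, -3.83 for Tdh, -3.67 for Dppa2, -3.40 for Fgf5, -3.32 for Esrrb, -3.31 for Fgf4, -3.23 for Utf1, -3.19 for Pou5f1, -2.07 for Klf4 and -2.04 for Dnmt3l. Gbx2 differs from the others here: GFP-positive cells had not been called against day 3, whereas GFP-negative cells were called higher than day 3. Its means were 68.5 on day 3, 520 in GFP-negative and 27.3 in GFP-positive cells, so its difference lay mostly on the GFP-negative side. The other genes among the largest falls gave -3.95 for Morc1, -3.86 for Bcl11a, -3.65 for Foxi3, -3.30 for Galnt3 and -2.83 for Enpp2.

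Streak and endoderm genes differed by -4.54 for Mixl1, -4.23 for Eomes, -3.95 for Foxa2 and -3.93 for Cubn, and midbrain and posterior genes by -3.73 for En2, -3.31 for Irx3, -2.62 for Lmx1b, -1.93 for Nkx6-1 and -1.80 for Pax3. Signalling genes differed by -4.21 for Tdgf1, -3.82 for Nodal, -3.47 for Lefty2, -2.26 for Lefty1, -3.63 for Fgf8, -3.11 for Spry4, -1.78 for Dusp6, -4.14 for Wnt8a, -3.99 for Wnt3, -1.96 for Wnt8b, -1.81 for Notum and -1.67 for Axin2. The last had not been called against day 3 and was thus among the genes for which the gates differed more than GFP-positive cells did from day 3.

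Epithelial genes differed by -3.95 for Cldn4, -3.32 for Cdh1, -3.30 for Cdh3, -3.29 for Cldn6, -2.76 for Cldn7, -2.65 for Epcam and -2.27 for Grhl2. Receptors gave -3.97 for Tnfrsf19, -3.17 for Epha1, -2.75 for Epha2, -2.57 for Rxrg and -1.66 for Nrp1. The remaining differences were -3.63 for Fabp7, -2.65 for C130021I20Rik, -2.60 for Pmaip1, -2.27 for Cdk6, -1.62 for Gadd45g and -1.56 for Ldhb.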

How the results depend on the processing

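The counts of 700 rises and 1545 falls stayed within 1.5 times under other pseudocounts, filters, quantile normalization (823 and 1309) and a fit without intensity trend. Dropping the fold-change criterion at an adjusted p of 0.05 gave 3583 rises and 4388 falls; of these, 842 and 2022 also differed between gates in the same direction, 3093 and 3786 were called alike between day 5 GFP-positive and day 2 cells, and from day 0 to day 2 the rises had 857 higher and 589 lower, the falls 983 higher and 1020 lower. A fold-change threshold of 1 gave 1110 rises, of which 126 also differed between gates and 1018 were alike in the later contrast, and, from day 0 to day 2, 137 and 106 rises and 252 and 235 falls called higher and lower. Testing against the fold threshold itself (limma's treat) left 163 rises and 464 falls, 6 and 72 that differed between gates, 146 and 428 alike in the later contrast, and 1, 0, 8 and 4 from day 0 to day 2. A fit of only the groups compared gave 31 rises higher and 26 lower, and 88 falls lower, from day 0 to day 2. The cause of these shifts, beyond the thresholds themselves, was not tested.

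Leaving out in turn each of the 6 libraries, day 0 replicate 1 or, for the other contrasts, each of their own libraries gave 598 to 754 rises and 1353 to 1651 falls, 49 to 82 and 503 to 695 that differed between gates, and 544 to 677 and 1216 to 1449 alike in the later contrast. For day 0 to day 2 it gave 46 to 62 and 42 to 55 rises, and 107 to 145 and 96 to 159 falls, higher and lower; the 96, against 149 with all libraries, came without either replicate 1 or replicate 2 of day 2. No source says that equal replicate numbers mark one culture. Correlations of same-numbered deviations were 0.126, 0.015 and 0.072 between day 3 and day 4 GFP-positive libraries and -0.108, 0.023 and -0.101 between the gates of day 4, which were sorted from the same organoids; only between day 3 and day 5 GFP-negative libraries were all 3 above 0.1 (0.401, 0.165 and 0.133). The numbers were therefore not used as pairs in the comparisons made here, and a replicate block gave 699 rises and 1518 falls, of which 65 and 594 differed between gates.

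Of the same 142 named genes, 126 kept their direction and call status in each of the 15 alternatives run for them, and 0 changed sign. The other thresholds and limma's treat were not among these alternatives, so named genes near the fold threshold can change their call there. Within the 15, calls were lost at least once by the 13 genes listed with the counts of calls, and gained by Ccnd2, Gbx2 and Tubb3. Low-level genes are limited by depth, since 1 read was worth about 0.858 to 1.22 normalized counts, and a fold on log2(value + 1) understates their change.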
